A study of Homo sapiens with 4 samples.

Results

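Mucins and trefoil factors were examined in Caco-2 cells, a human colorectal carcinoma line that forms an enterocyte-like layer, before and after stimulation with interferon gamma (IFNγ). The 10 genes were taken from the count table by symbol: MUC1, MUC3A, MUC12, MUC13, MUC17 and MUC20 encode membrane mucins, MUC2 and MUC5AC encode secreted gel-forming mucins, and TFF1 and TFF3 encode trefoil peptides. All 10 had a row among the 37515 genes listed. RNA-seq was performed on 4 libraries of wild-type cells grown on transwell inserts, 2 from unstimulated cells taken at 0 h and 2 from cells that had received 60 ng/ml IFNγ in the basal compartment for 3 h. All 4 libraries come from 1 cell line, and the labels do not say whether the replicates were separate cultures, so p-values measure only the spread between these libraries. Effects of IFNγ and of the 3 h in culture cannot be told apart.

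Mucins are large proteins whose serine- and threonine-rich stretches carry dense O-linked sugar chains. Membrane mucins stand on the apical surface of epithelial cells as part of the glycocalyx, and MUC13, MUC17, MUC3A and MUC12 are known from the brush border of enterocytes. Gel-forming mucins are secreted by mucus-producing cells, such as the goblet cells of the intestine. MUC2 builds the mucus of the intestine and MUC5AC that of the stomach and airways. Trefoil factors are small, disulfide-rich peptides secreted together with mucins and known for their part in epithelial repair.

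The libraries held 7171455 to 10365346 counts, and levels were expressed as CPM (counts scaled to a common library size of 1e6, adjusted by edgeR's TMM method), where 1 CPM stood for 7.14 to 10.3 counts. After edgeR's default filter on low counts 14820 genes were tested, 8 of the 10 mucin and trefoil genes among them. Differences are given as the log2 ratio of IFNγ to unstimulated cells fitted by edgeR, with its standard error (SE). A gene was called where edgeR's quasi-likelihood test, adjusted over all tested genes by Benjamini-Hochberg, gave a p-value under 0.05 and the log2 ratio was above 1 or below -1. The stimulation was visible in the libraries: of 11 tested genes from a list of known IFNγ targets, 10 were called higher and 0 lower, with a log2 ratio of 5.86 for IRF1 (edgeR adjusted p = 7.43e-06). Markers of the epithelium were present. All 11 listed epithelial and enterocyte markers were tested, with mean levels over the libraries of 2992 CPM for APOA1 and 1697 CPM for VIL1. Of 10 listed markers of other cell types 9 had a row and 3 were tested, of which COL1A1 had the highest mean level, 139 CPM, followed by CD14 with 5.72 CPM, while CHGA and DEFA5 were at 0 counts in every library.

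None of the 8 tested mucin and trefoil genes was called after 3 h of IFNγ, in either direction, against 7.28% of all tested genes. An adjusted p-value from edgeR under 0.05, at any fold, was reached by 0 of them and by 20.0% of all tested genes. By unadjusted p-value from edgeR 1 of the 8, MUC20, was under 0.05, against 35.4% of all tested genes, and by DESeq2 also 0 members were called. Their log2 ratios ran from -0.82 to 0.80 with a median of 0.18, where the median of all tested genes was -0.01. The values were positive for 6 and negative for 2. The 0 members by adjusted p-value at any fold belong to the fit without a replicate block. With that block edgeR gave adjusted p-values of 0.0142 for MUC17 and 0.0112 for MUC20, under the fold threshold. By adjusted p-value alone it then had 2596 genes higher and 2892 lower. With a GC and length trend also removed, MUC13 passed as well (edgeR adjusted p = 0.0118). In bulk RNA fewer cells of a type and less RNA per cell cannot be told apart, and this holds for every level given here.

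The promoters of the 3 membrane mucins with the most counts are shown with that of MUC2, which had almost none. The windows cover the 250 bases before the RefSeq start, and capitals mark matches to 1 of the 5 motifs given here, searched on both strands.
MUC13 (GRCh38.p14, chr3:124934752-124935001, minus strand): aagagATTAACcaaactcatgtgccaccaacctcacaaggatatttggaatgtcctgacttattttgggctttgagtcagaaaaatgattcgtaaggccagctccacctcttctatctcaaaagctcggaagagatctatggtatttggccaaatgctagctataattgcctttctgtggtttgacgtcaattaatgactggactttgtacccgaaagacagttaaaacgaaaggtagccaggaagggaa
MUC17 (GRCh38.p14, chr7:101019831-101020080, plus strand): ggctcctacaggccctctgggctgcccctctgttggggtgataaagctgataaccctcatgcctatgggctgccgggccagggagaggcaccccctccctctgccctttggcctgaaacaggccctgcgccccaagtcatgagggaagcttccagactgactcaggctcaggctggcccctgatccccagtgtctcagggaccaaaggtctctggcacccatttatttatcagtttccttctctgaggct
MUC3A (GRCh38.p14, chr7:100949284-100949533, plus strand): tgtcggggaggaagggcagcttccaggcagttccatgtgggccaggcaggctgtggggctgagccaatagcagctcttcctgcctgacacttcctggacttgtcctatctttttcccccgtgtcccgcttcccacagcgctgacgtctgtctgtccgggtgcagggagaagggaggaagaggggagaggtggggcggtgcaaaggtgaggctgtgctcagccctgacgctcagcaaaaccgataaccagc
MUC2 (GRCh38.p14, chr11:1074624-1074873, plus strand): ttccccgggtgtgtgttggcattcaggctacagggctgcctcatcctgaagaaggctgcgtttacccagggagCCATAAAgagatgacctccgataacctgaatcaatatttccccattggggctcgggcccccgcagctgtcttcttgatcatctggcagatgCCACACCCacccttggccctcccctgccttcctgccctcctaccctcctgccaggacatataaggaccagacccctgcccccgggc
RefSeq windows were at hand for 6 of the 10 members (MUC1, MUC2, MUC3A, MUC12, MUC13 and MUC17), MUC1 with a pair of starts, giving 7 windows. The motifs were the interferon-stimulated response element (a pair of GAAA blocks parted by 2 bases), the CDX core TTTATNG, the HNF1 half-site GTTAAT, the GATA core AGATAA and the KLF4 core GGGTGTGG. The interferon-stimulated response element was in 0 of the 7 windows and in 3.02% of 34788 distinct RefSeq windows of this length. The CDX core was found in MUC12 and MUC2 (8.95% of all windows), the HNF1 half-site in MUC13 (6.26% of all), the KLF4 core in MUC2 (2.94% of all) and the GATA core in none of the 7 (9.21% of all). Such matches describe the letters in these windows only.

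Membrane mucins carried nearly all of the counts. MUC13, MUC17 and MUC3A together took 90.5% and 88.2% of the counts of the 10 genes in the unstimulated libraries (replicates 1 and 2) and 91.7% and 89.0% in the IFNγ libraries. The 10 genes together held 0.0934% and 0.0837% of all counts before and 0.112% and 0.0847% after IFNγ.

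**Figure D1:**
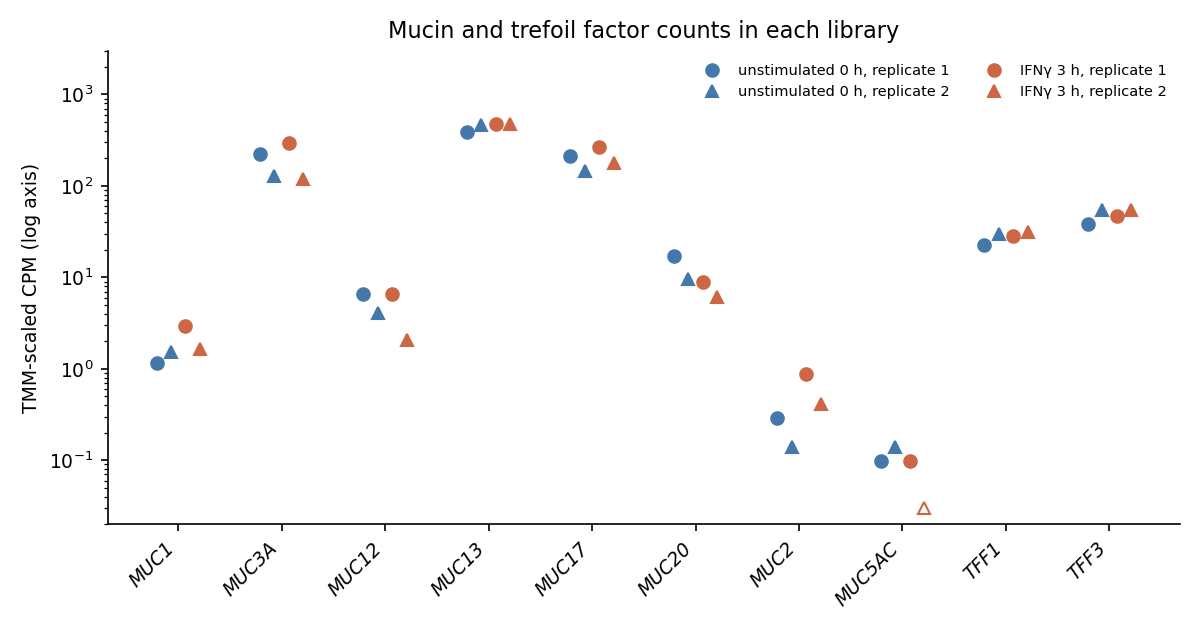
TMM-scaled CPM of each of the 10 genes (log axis), with 1 point per library: circles are replicate 1, triangles replicate 2, blue unstimulated cells at 0 h and orange cells after 3 h of IFNγ; the open triangle stands for 0 counts of MUC5AC and is placed arbitrarily. MUC13 sits between 388 and 476 CPM in all 4 libraries, while MUC3A and MUC17 separate by replicate.

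MUC13 (ENSG00000173702, chromosome 3 of GRCh37, 124624289 to 124672663, minus strand), a membrane mucin with a short mucin domain and EGF-like domains, had 388 and 467 CPM in the unstimulated replicates 1 and 2 and 473 and 476 CPM after IFNγ. The conditions did not overlap, but they lay apart by only 6.73 CPM while the unstimulated libraries differed by 78.7 CPM. The means were 427 ± 55.7 (SD, n = 2) and 475 ± 2.07 (SD, n = 2) CPM, a log2 ratio of 0.15 (SE 0.12, edgeR adjusted p = 0.422). Its 95% interval ran from -0.14 to 0.44, that is from 0.909-fold to 1.36-fold, the narrowest interval among the 8 tested genes. Non-overlap in this direction was met by 31.6% of all tested genes.

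MUC17 (ENSG00000169876, chromosome 7 of GRCh37, 100663353 to 100702140, plus strand), the long mucin of the enterocyte glycocalyx, had 211 and 147 CPM in unstimulated cells and 265 and 177 CPM after IFNγ. It was higher after IFNγ within both same-numbered pairs, with log2 differences of 0.33 and 0.27, yet the conditions overlapped. The log2 ratio was 0.31 (SE 0.23, 95% interval -0.23 to 0.84, edgeR adjusted p = 0.384). Without IFNγ replicate 1 it was -0.030, and with a trend of GC content and length removed from each library it was 0.53 (edgeR adjusted p = 0.0384), under the fold threshold. MUC3A (ENSG00000169894, chromosome 7 of GRCh37, 100547187 to 100611118, plus strand), another mucin of the brush border, had 223 and 128 CPM before and 298 and 120 CPM after IFNγ. Both replicate 1 libraries were high and both replicate 2 libraries low, and the pairs moved in opposite directions, by 0.42 and -0.09 on the log2 scale. The log2 ratio of 0.25 had an SE of 0.41 (95% interval -0.70 to 1.21, edgeR adjusted p = 0.702), and it turned to -0.56 without IFNγ replicate 1 and to -0.08 without unstimulated replicate 2. Without IFNγ replicate 2 it was 0.73 (edgeR adjusted p = 0.000250), again under the fold threshold. Of the annotated exon bases of MUC3A 11.8% are shared with a gene on the opposite strand, RP11-395B7.2, which had 21 to 60 counts per library. Whether the counting used strand is not given in the sources used here. MUC3A also has a near-identical neighbour, MUC3B, which was not analysed here, so its counts are uncertain.

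MUC12 (ENSG00000205277, chromosome 7 of GRCh37, 100612846 to 100662220, plus strand), which lies between MUC3A and MUC17 and encodes a mucin of the same kind, was far lower. It had 67 and 29 counts before and 67 and 15 counts after IFNγ, equal to 6.52, 4.06, 6.52 and 2.05 CPM. The replicate 1 libraries were the same and the replicate 2 libraries differed, with the IFNγ library the lowest. The log2 ratio was -0.28 (SE 0.50, 95% interval -1.46 to 0.90, edgeR adjusted p = 0.734), and it became 0.12 without unstimulated replicate 1 and 0.25 without IFNγ replicate 2. Of the 3 neighbours on chromosome 7, MUC3A and MUC17 thus had like mean CPM over the libraries (192 and 200), while MUC12 had 4.79. These values are not scaled by length. Per kilobase of annotated exon the means were 34.8 for MUC3A, 13.6 for MUC17 and 0.279 for MUC12, with MUC3A above MUC17 in all 4 libraries. All 3 were higher in replicate 1 in both conditions, as were 29.0% of all tested genes.

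MUC1 (ENSG00000185499, chromosome 1 of GRCh37, 155158300 to 155162707, minus strand), the membrane mucin whose cytoplasmic tail takes part in signaling, was near the limit of what could be tested. It had 12 and 11 counts in unstimulated cells and 30 and 12 counts after IFNγ, or 1.17, 1.54, 2.92 and 1.64 CPM. IFNγ replicate 1 stood apart, and the other IFNγ library was within 0.0962 CPM of the higher unstimulated one. The difference lay in the replicate 1 libraries, with 1.17 on the log2 scale, while the replicate 2 libraries differed by 0.08. The log2 ratio was 0.80 (SE 0.45, 95% interval -0.26 to 1.85, edgeR adjusted p = 0.251). A difference of up to 3.61-fold was within the interval, so at this depth neither a rise nor its absence could be shown.

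MUC20 (ENSG00000176945, chromosome 3 of GRCh37, 195447755 to 195467994, plus strand), a membrane mucin known to bind the MET receptor, had the lowest fold change. It had 174 and 69 counts before and 92 and 45 counts after IFNγ, or 16.9, 9.67, 8.95 and 6.14 CPM. Both IFNγ libraries were below both unstimulated ones, a pattern that 30.8% of all tested genes showed in this direction. The log2 ratio was -0.82 (SE 0.32, 95% interval -1.56 to -0.08, unadjusted p = 0.0346 and edgeR adjusted p = 0.110), with -0.90 between the replicate 1 libraries and -0.64 between the replicate 2 libraries. It was not called. Without unstimulated replicate 2 it was called lower, at -1.14 with an adjusted p-value from edgeR of 0.0119, and without unstimulated replicate 1 the value was -0.34. MUC20 shares 27.1% of its exon bases with the noncoding gene MUC20-OT1 on the same strand, so reads of the pair cannot be fully told apart. MUC20-OT1 had 72.2 and 23.4 CPM before and 35.0 and 13.4 CPM after IFNγ (log2 ratio -0.97, SE 0.55, edgeR adjusted p = 0.254). The pseudogene MUC20P1 had 12 to 36 counts per library (log2 ratio 0.40, edgeR adjusted p = 0.544).

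**Figure D2:**
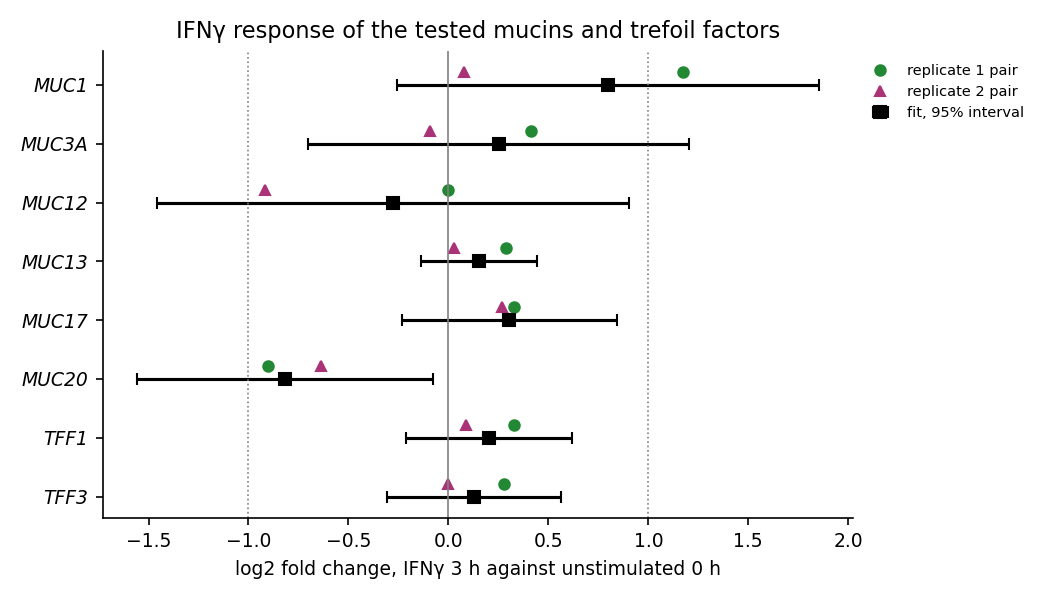
Log2 fold change after 3 h of IFNγ for the 8 tested genes (squares, with the 95% interval of edgeR's quasi-likelihood fit), and the log2 difference within the replicate 1 pair (circles) and the replicate 2 pair (triangles). Dotted lines mark a log2 ratio of -1 and 1; MUC20 is the one gene whose interval leaves out 0.

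Trefoil factors were expressed in all libraries and were not called. TFF1 (ENSG00000160182, chromosome 21 of GRCh37, 43782391 to 43786644, minus strand), the trefoil peptide of the stomach, had 22.4 and 29.6 CPM in unstimulated cells and 28.2 and 31.4 CPM after IFNγ. The conditions overlapped, and the log2 ratio was 0.20 (SE 0.18, 95% interval -0.21 to 0.62, edgeR adjusted p = 0.460). TFF3 (ENSG00000160180, chromosome 21 of GRCh37, 43731777 to 43735519, minus strand), the intestinal trefoil factor of goblet cells, had 38.6 and 54.2 CPM before and 46.9 and 54.2 CPM after IFNγ. Its replicate 2 libraries were equal, and the log2 ratio was 0.13 (SE 0.19, 95% interval -0.31 to 0.56, edgeR adjusted p = 0.668). It was -0.11 without unstimulated replicate 1. TFF2, which lies between them on chromosome 21, had 34.4 and 38.7 CPM before and 38.9 and 39.8 CPM after IFNγ, a log2 ratio of 0.11 (SE 0.14, edgeR adjusted p = 0.610). A doubling lay outside the 95% intervals of MUC13, MUC17, TFF1 and TFF3, whose upper bounds were 1.36-fold, 1.79-fold, 1.54-fold and 1.48-fold.

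The gel-forming mucins were too low to be tested. MUC2 (ENSG00000198788, chromosome 11 of GRCh37, 1074875 to 1104416, plus strand) had 3 and 1 counts in unstimulated cells and 9 and 3 counts after IFNγ. Pooled by condition these were 4 and 12 counts, a ratio of 2.97 with an exact 95% interval of 0.899 to 12.6 that covers counting error only. MUC5AC (ENSG00000215182, chromosome 11 of GRCh37, 1151580 to 1222364, plus strand) had 1 count in 3 libraries and 0 counts in IFNγ replicate 2, which allows up to 3 counts, or 0.409 CPM, in that library. Its pooled ratio was 0.494 (exact 95% interval 0.00838 to 9.49). Within these intervals neither a change in either gene nor its absence could be shown at this depth.

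Levels of different genes were compared per kilobase of annotated exon. The order of mean levels over the 4 libraries was MUC13 (129 CPM per kb), TFF1 (56.7), TFF3 (52.6), MUC3A (34.8), MUC17 (13.6), MUC20 (1.52), MUC1 (0.756), MUC12 (0.279), MUC2 (0.0583) and MUC5AC (0.0141 CPM per kb). In each library the trefoil factors TFF1 and TFF3 were above MUC17 on this scale, although MUC17 had more CPM. TFF1 and TFF3 overlapped in their ranges, 45.5 to 63.8 and 41.8 to 58.8 CPM per kb, and so did TFF3 and MUC3A, whose libraries ran from 21.8 to 53.8 CPM per kb. The ranges of MUC20 and MUC1 and those of MUC2 and MUC5AC overlapped as well, and those of the other neighbours in the order did not. TFF2 had a mean of 54.3 CPM per kb, inside the ranges of TFF1 and TFF3, so the 3 trefoil genes of chromosome 21 stood at like levels per length. These values rest on the exons of GENCODE 44 mapped to GRCh37, and a gene whose cells use shorter transcripts would have a higher level per length than given. The longest transcripts of MUC3A, MUC2 and MUC5AC in this annotation have 4238, 4209 and 4012 bases, against 16737 for MUC12. Whether they are complete was not tested, so the levels per length of these 3 genes are uncertain in either direction.

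**Figure D3:**
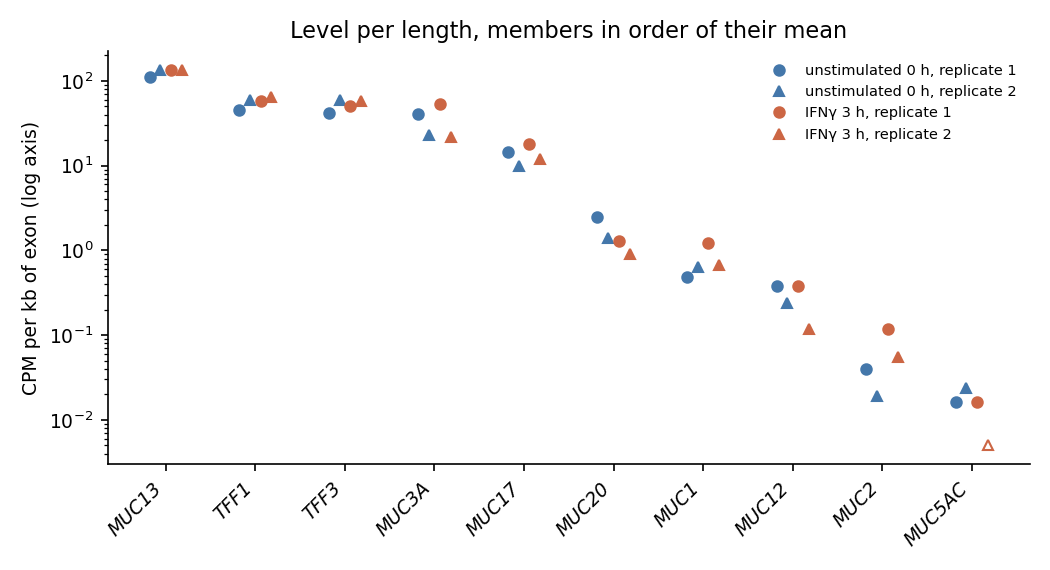
CPM per kilobase of annotated exon (log axis) for the 10 genes in order of their mean, with 1 point per library, coloured blue for unstimulated cells and orange for IFNγ, circles for replicate 1 and triangles for replicate 2; the open triangle stands for 0 counts and is placed arbitrarily. MUC13 is the highest in all 4 libraries, at 111 to 136 CPM per kb, and MUC5AC is the lowest on average.

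The replicates differed more than the conditions for 5 of the 8 tested genes (MUC3A, MUC12, MUC17, TFF1 and TFF3), comparing the mean log2 difference between replicates with the log2 ratio. The share of all tested genes that did so was not computed, so whether this is particular to these genes is not known. Replicate 1 was the higher by over 0.5 on the log2 scale in both conditions for MUC3A (0.80 unstimulated, 1.31 IFNγ), MUC12 (0.65, 1.57), MUC17 (0.52, 0.58) and MUC20 (0.80, 0.53), a pattern shown by 5.01% of all tested genes. The 0.5 was not a planned threshold. At any size of difference, replicate 1 was higher in both conditions for 29.0% of all tested genes. Averaged over conditions the replicate 1 libraries had 2.07 times the replicate 2 level of MUC3A and 2.16 times that of MUC12. Both trefoil factors went the other way, at -0.40 and -0.15 for TFF1 and -0.49 and -0.21 for TFF3, as did MUC13 at -0.27 and -0.01, and 35.1% of all tested genes were lower in replicate 1 in both conditions. MUC4, the neighbour of MUC20, and MUC20-OT1 had mean replicate differences of 1.09 and 1.49. Across 14518 tested genes with an annotated transcript, the difference between replicates rose weakly with transcript length (Spearman rho = 0.235), with a median of -0.11 in the shortest and 0.09 in the longest of 5 length bins. The longest transcripts of MUC12 and MUC17 have 16737 and 14352 bases and that of TFF1 has 492. Those of MUC3A, MUC20 and MUC20-OT1 have 4238, 5053 and 4208 bases. Their mean replicate differences were 1.05, 0.66 and 1.49, while the median of their length bin (4184 to 5944 bases) was 0.002. The part of length in the replicate difference was not tested.

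**Figure D4:**
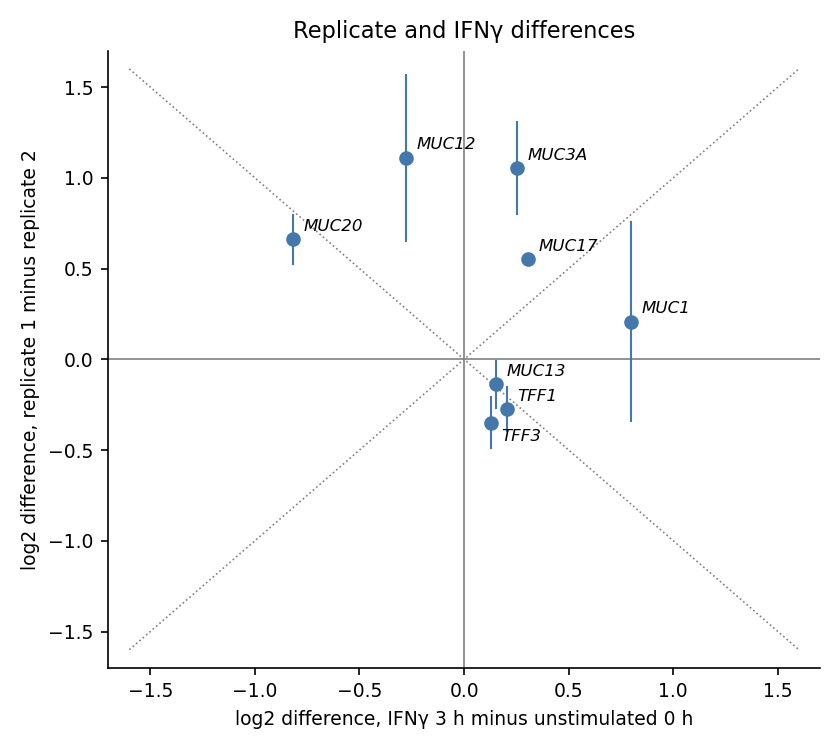
Log2 difference between replicate 1 and replicate 2 (vertical axis; points are the mean over conditions, lines join the unstimulated and the IFNγ value) against the log2 ratio after IFNγ (horizontal axis) for the 8 tested genes. Between the dotted diagonals above and below the centre the replicate difference is the larger, as for MUC3A, MUC12, MUC17, TFF1 and TFF3.

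By the smallest root mean square difference of centred log2 CPM over the 4 libraries, the genes most like MUC13 among 82 tested genes of the lists used here were NHERF2 (0.0380), APOA1 (0.0426) and TFF2 (0.0430). The 4 libraries are the same for all of these genes, and the measure says only that their values lay nearly level as those of MUC13 did.

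Other mucins and trefoil genes were likewise not called. Of 14 listed 12 had a row and 4 were tested (MUC4, MUC19, CD164 and TFF2). Of these 4, 0 were called, against 7.28% of all tested genes. An unadjusted p-value from edgeR under 0.05 was reached by 0 of the 4 and by 35.4% of all tested genes. DESeq2 called none of the 4 either. MUC7, MUC15, MUC22 and EMCN had 0 counts in every library, and MUC5B, MUC6, MUC16 and MUCL1 had at most 4 counts in any library. MUC4 had 7.01 and 2.52 CPM before and 4.18 and 2.32 CPM after IFNγ, a log2 ratio of -0.56 with an SE of 0.51. CD164, a small and widely expressed sialomucin, had 573 and 690 CPM before and 538 and 592 CPM after IFNγ (log2 ratio -0.16, edgeR adjusted p = 0.417).

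Goblet cell genes gave a mixed picture of this enterocyte-like line. Of 16 listed 14 had a row and 8 were tested. CLCA1, RETNLB and REP15 had 0 counts in every library, and SPDEF, ERN2 and SPINK4 had at most 2. AGR2, the protein disulfide isomerase that assists mucin folding, and ZG16, a lectin of intestinal mucus, were well expressed, with means over the libraries of 166 and 138 CPM, and had log2 ratios of -0.25 and 0.23 (edgeR adjusted p = 0.291 and 0.174). FOXA3, a forkhead factor of liver and gut, rose from 9.15 and 8.13 CPM to 21.9 and 22.9 CPM, a log2 ratio of 1.37 (SE 0.17, edgeR adjusted p = 0.00333). It was the 1 gene of this list called higher, where 2.88% of all tested genes were called higher, and 0 were called lower, where the share of all tested genes was 4.40%. The list's median log2 ratio was 0.23.

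Of the enzymes that build mucin-type sugar chains, 25 of 26 had a row and 19 were tested, 2 were called higher (2.88% of all tested genes) and 0 lower (4.40% of all). GCNT3, which makes the core 2 and core 4 branches of mucin glycans, rose from 7.50 and 10.1 CPM to 33.2 and 34.9 CPM, a log2 ratio of 1.97 (SE 0.19, edgeR adjusted p = 0.00145). B3GNT3, which extends core 1 chains, rose from 3.21 and 3.50 CPM to 11.6 and 13.9 CPM, a log2 ratio of 1.92 (SE 0.24, edgeR adjusted p = 0.00332). For both, every IFNγ library was above every unstimulated one, as for 31.6% of all tested genes. Both were called under every alternative run. The enzymes that start the chains were not called, among them GALNT3 (log2 ratio -0.15, edgeR adjusted p = 0.502) and GALNT6 (0.16, edgeR adjusted p = 0.368). A further 3 enzymes, named after their values were seen, passed the adjusted p-value, as did 9.02% (higher) and 11.0% (lower) of all tested genes, but not the fold threshold: ST3GAL2, which caps chains with sialic acid, at 0.76, GALNT10 at -0.73, and C1GALT1, which makes core 1, at -0.51. The median log2 ratio of the 19 enzymes was -0.10, with 9 values above and 10 below 0. GALNT5, named after its values were seen, was called lower only without IFNγ replicate 2 among the alternatives run (-1.05, edgeR adjusted p = 0.0252, against -0.84 and 0.0571 with all libraries).

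All 10 listed partners of membrane mucins were tested, 0 were called higher and 1 lower, where 2.88% and 4.40% of all tested genes were. GOPC, a Golgi PDZ protein, fell from 58.5 and 58.1 CPM to 31.7 and 24.4 CPM, a log2 ratio of -1.05 (SE 0.16, edgeR adjusted p = 0.00554). Its call ended without IFNγ replicate 2, at -0.90, and with a trend of GC content and length removed from each library, at -0.68. NHERF1, a PDZ scaffold under the apical membrane, had a log2 ratio of 0.41 (edgeR adjusted p = 0.0410), and LGALS3, a lectin that binds mucin glycans, had one of 0.43 (edgeR adjusted p = 0.0968). EZR, which links membrane proteins to actin, and ADAM10, a sheddase, named after their values were seen, had log2 ratios of 0.61 and -0.50 with edgeR adjusted p-values of 0.0122 and 0.0228, under the fold threshold.

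Among transcription factors linked to mucin and trefoil genes, 9 of 11 were tested, 2 were called higher and 1 lower, beside 2.88% and 4.40% of all tested genes. KLF4, known for its part in goblet cell maturation, rose from 7.98 and 7.71 CPM to 34.0 and 32.5 CPM, a log2 ratio of 2.08 (SE 0.16, edgeR adjusted p = 0.000700). CDX2, the homeobox factor of intestinal identity and a known activator of MUC2, rose from 178 and 177 CPM to 409 and 406 CPM, a log2 ratio of 1.20 (SE 0.11, edgeR adjusted p = 0.00117). The GC content of its longest transcript is 59.6%, and the log2 ratio of tested genes rose with GC content (Spearman rho = 0.431 over 14518 genes). With the trend removed CDX2 had 0.98, just under the fold threshold (edgeR adjusted p = 0.00152). GATA4 fell from 9.06 and 11.5 CPM to 6.13 and 3.68 CPM, a log2 ratio of -1.03 (SE 0.30, edgeR adjusted p = 0.0496). That call ended with DESeq2 (adjusted p = 0.0741), with upper quartile scaling (-0.99), and without unstimulated replicate 1 (-1.20, edgeR adjusted p = 0.0642), unstimulated replicate 2 (-0.85, edgeR adjusted p = 0.127) or IFNγ replicate 2 (-0.75, edgeR adjusted p = 0.103). Under the other alternatives run GATA4 stayed called. With the GC and length trend removed it had -1.25 (edgeR adjusted p = 0.0209), and with the replicate block as well -1.22 (edgeR adjusted p = 0.000261). HNF4A and SP1 were not called, with log2 ratios of -0.23 and -0.36. Of the 11 epithelial and enterocyte markers, 1 was called lower (4.40% of all tested genes) and 0 higher (2.88%). SI, the brush border sucrase-isomaltase, fell from 419 and 439 CPM to 258 and 134 CPM (log2 ratio -1.13, SE 0.27, edgeR adjusted p = 0.0256). At any fold, 3 of the 11 were higher and 2 lower by edgeR adjusted p-value under 0.05, beside 9.02% and 11.0% of all tested genes. The median log2 ratio of the 11 markers was 0.20, with 8 values above and 3 below 0.

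**Figure D5:**
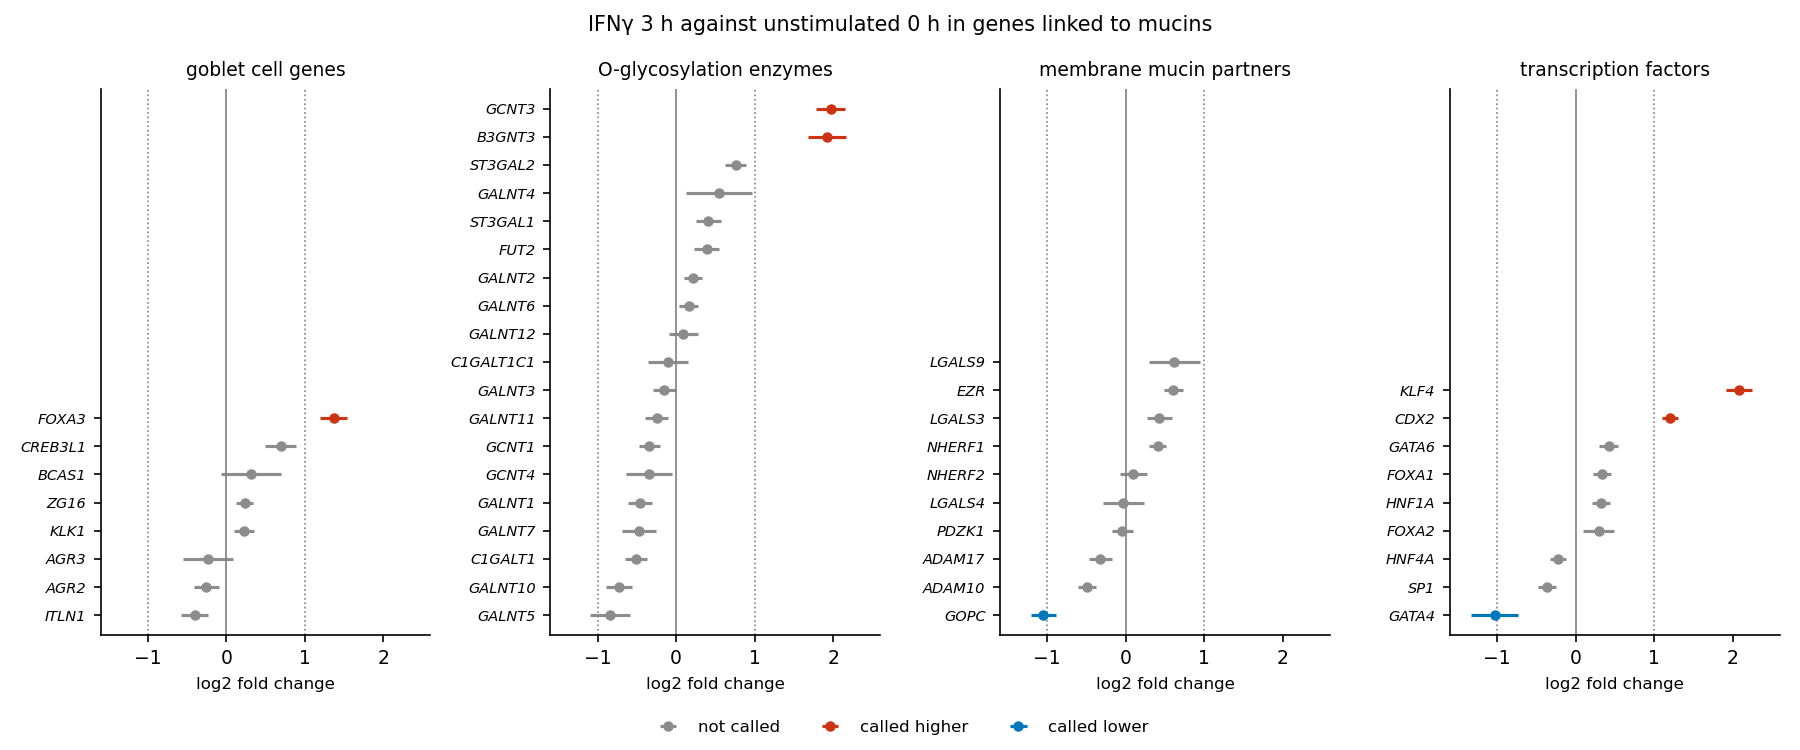
Log2 fold change after 3 h of IFNγ (points, with the standard error of edgeR's fit) for the tested genes of 4 lists linked to mucins, in order of their value, with called genes in red (higher) and blue (lower) and dotted lines at -1 and 1. GCNT3, B3GNT3, KLF4, CDX2 and FOXA3 lie to the right of 1, and GOPC and GATA4 to the left of -1.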

How the data were processed

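RNA-seq counts of 4 Caco-2 libraries were analyzed. Per the labels, TruSeq libraries were made from total RNA, and the submitters' processing notes name HISAT 0.5.1 and HTSeq 0.6.1p1. The deposited values are whole read counts for each Ensembl gene and library, which the authors neither normalized nor pooled. Their genome build, annotation and strand setting are not given in the sources used here. Symbols were paired with 96.5% of identifiers, and exons, GC content and positions were taken from GENCODE 44 mapped to GRCh37, which may differ from the annotation used for counting. Promoter windows came from RefSeq on GRCh38.p14, and 1 motif searched in them is not reported here.

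Genes were filtered with edgeR's default, scaled by TMM and tested with edgeR 4.0.16's quasi-likelihood test (glmQLFTest) in R 4.3.3, without a block. Each SE is the log2 ratio over the root of its F statistic. Log2 differences of pairs and replicates used CPM with a prior count of 2. Depth was 7171455 to 10365346 counts, and intervals of counts cover counting error only. Alternatives were DESeq2 1.42.0, other scalings, filters and thresholds, the replicate block, removal of a GC and length trend by loess (span 0.3), and each library left out. The fits were tested on simulated data. The members, lists and alternatives were chosen with earlier results of these data known. Genes named are all members, the called genes of each list and the 2 uncalled genes of each list with the most CPM, with exceptions said in the text.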

Additional observations from a re-analysis of the deposited data

How the results depend on the processing

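No member was called under any alternative at the stated thresholds, except MUC20 with 1 library left out, so members called lower ran from 0 to 1 and members called higher stayed at 0. With each library left out in turn, where the lone library of a condition is assumed to vary like the others, genes called higher ran from 339 to 455 and genes called lower from 554 to 1112, against 427 and 652. The highest count of lower calls, 1112, came without IFNγ replicate 1. Called genes of the 5 lists ran from 5 to 5 higher and from 1 to 2 lower. Without IFNγ replicate 2 the lower call was GALNT5, in place of GOPC and GATA4. The log2 ratio ran from -0.56 to 0.73 for MUC3A, -1.40 to 0.25 for MUC12, -0.030 to 0.59 for MUC17, -0.11 to 0.40 for TFF3, 0.28 to 1.10 for MUC1, 0.023 to 0.31 for MUC13, 0.0072 to 0.42 for TFF1 and -1.15 to -0.34 for MUC20. Without unstimulated replicate 1, TFF3 reversed to -0.11 and MUC12 to 0.12; without unstimulated replicate 2, MUC3A to -0.08; without IFNγ replicate 1, MUC3A to -0.56 and MUC17 to -0.030 (without IFNγ replicate 2 the edgeR adjusted p-values of MUC17 and MUC3A were 0.0119 and 0.000250); without IFNγ replicate 2, MUC12 to 0.25.

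Removing the GC and length trend left 313 lower calls, 1 of them from the 5 lists, as with the trend removed and the replicate block (508 genes lower). The log2 ratio of MUC17 was then 0.53 (edgeR adjusted p = 0.0384, with the block 1.19e-05), that of MUC13 0.24 (0.265, with the block 0.0118), MUC20 -0.91 (0.0524, with the block 0.000352), MUC3A 0.088, MUC12 -0.18, TFF1 0.087 and TFF3 0.0027. Upper quartile scaling and DESeq2 each also left 1 list gene called lower against 2. By adjusted p-value alone there were 1337 higher and 1626 lower calls, 8 and 5 of them from the lists, and MUC20 passed it without a filter on low counts (0.00992 from edgeR). The replicate numbers are shared by the labels without a stated batch, and deviations of same-numbered libraries correlated across genes (r = 0.415). The replicate block called 492 genes higher and 896 lower, and ended no call of a member or a list gene. The block without a fold threshold, chosen after seeing the data, called 2596 genes higher and 2892 lower, 14 and 12 of them list genes. It had 1 member higher (MUC17, edgeR adjusted p = 0.0142, log2 ratio 0.30) and 1 lower (MUC20, edgeR adjusted p = 0.0112, log2 ratio -0.82). The causes were not tested. DESeq2 gave MUC1 no adjusted p-value. MUC2 and MUC5AC, with at most 9 counts in a library, were below the depth needed for a test.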
